A study of Homo sapiens with 6 samples.

Results

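In RNA-seq of SW480 cells, 140 genes were at least 4-fold higher in the replicate 3 library than in replicates 1 and 2 of both groups, among the 63677 genes counted. SW480 is an established human colorectal adenocarcinoma line. The cells had been transduced with a lentiviral vector for HA-tagged GFP, the control, or HA-tagged POU5F1B, a retrogene copy of the pluripotency factor gene POU5F1, each driven by a doxycycline-inducible promoter. All libraries came from puromycin-selected cells kept in 1 µg/mL doxycycline for 72 h before harvest, so the drug and the vector backbone were common to both groups, with 3 libraries in each of the 2 groups. The labels do not say whether replicates were separate cultures, or what set the replicate 3 libraries apart, so p-values measure only the spread between these libraries. Genes were chosen on the values that they are described by: CPM (counts scaled to the library total) plus 0.5 in replicate 3 over the mean of replicates 1 and 2 plus 0.5, at 4 or more in the GFP and in the POU5F1B libraries, with 1 CPM or more in both replicate 3 libraries. Replicate 3 against replicates 1 and 2 is therefore a description and carries no test.

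As background, the intestinal epithelium is renewed from LGR5-positive stem cells at the base of crypts, where Wnt signalling keeps cells dividing, and differentiated enterocytes carry a brush border of microvilli held together by protocadherins. Adhesion and guidance proteins such as protocadherins, contactins and the ROBO receptors are best known from the developing nervous system, where they sort cells and steer axons, although many of them are also made by epithelia and carcinomas. Transcription factors such as PROX1 and MYB act in this tissue too, the first in intestinal tumours, liver and lymphatic endothelium and the second in crypt progenitors.

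The 6 libraries held between 10767947 and 12787637 counts, and 3 counts, the limit that a count of 0 allows, corresponded to 0.235 to 0.279 CPM. The overexpressed gene checked the labels: POU5F1B counts were 6, 5 and 1 with GFP and 15027, 11393 and 1458 with the POU5F1B vector (replicates 1 to 3), so that CPM of the transgene dropped 9.03-fold in the third of these libraries. Of the epithelial markers of the labelled line, KRT8 had 35126 to 48850 counts and KRT18 37704 to 47655, while CDX1, CEACAM5, LGALS4 and KRT20 had 0 to 19 in every library. Mitochondrial genes took 6.95 to 8.62% of counts, most in GFP replicate 3, and the smallest TMM scaling factor, 0.932, was also that of GFP replicate 3.

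Of 13287 genes at 1 CPM or more in both replicate 3 libraries, 140 were raised by the rule, a background share of 1.05% that the rule itself fixes. They were 28.6% of the 489 genes that met the limits in the GFP libraries and 64.8% of the 216 that met them in the POU5F1B libraries. Of the 140, 130 were protein-coding, 8 were long noncoding RNAs, and 2 identifiers had no symbol. The ratio had a median of 14.1 in GFP, with a range of 4.07 to 174, and of 7.6 in POU5F1B, with a range of 4.03 to 289. It was larger in GFP for 117 genes and larger in POU5F1B for 23, and 54 genes reached 8-fold in both groups. In the opposite direction, 5 genes were at least 4-fold below the mean of replicates 1 and 2 in both replicate 3 libraries. They were SNORD3A, KRT13, COL4A4, CST4 and SLA. For SNORD3A the 4-fold drop rests on replicate 1 in both groups. Its counts in replicates 1, 2 and 3 were 316, 12 and 23 in GFP and 788, 60 and 29 in POU5F1B.

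**Figure D1:**
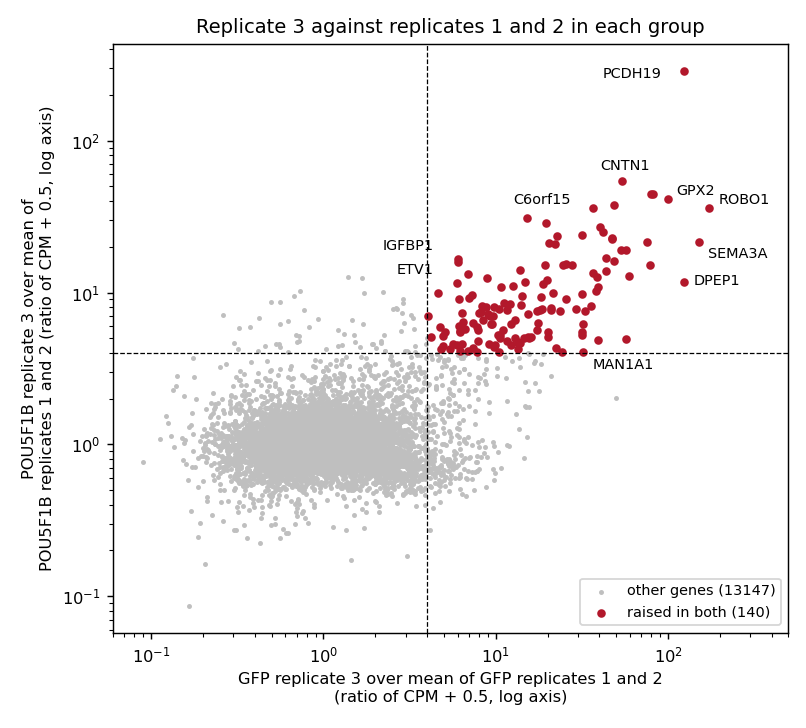
Ratio of replicate 3 to the mean of replicates 1 and 2, on CPM plus 0.5, in GFP (x axis) and POU5F1B (y axis) for the 13287 genes at 1 CPM or more in both replicate 3 libraries, both axes logarithmic. The 140 genes (red points) fill the corner above 4-fold on both axes (dashed lines), and most lie further along the GFP axis than along the POU5F1B axis.

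Outside the replicate 3 libraries most of these genes were at or near the detection limit. The median gene had 6, 4 and 230 counts in GFP replicates 1, 2 and 3, and 3, 3 and 78.5 counts in POU5F1B replicates 1, 2 and 3. Over the 4 libraries of replicates 1 and 2 together, 49 genes had at most 10 counts and 102 had at most 50, and 9 genes had none. Added up, the 140 genes gave 238, 196 and 5760 CPM with GFP, and 144, 143 and 2010 CPM with POU5F1B, and the 10 with the most counts gave 43.1% of the sum in GFP replicate 3. The offset of 0.5 CPM pulls ratios from such low levels downwards: with no offset, and with 3 counts over both libraries in place of 0 for the 13 genes without counts in GFP replicates 1 and 2 and the 21 without in POU5F1B, the median ratio was 36.5 in GFP and 25.1 in POU5F1B. In RNA from whole cultures, a few cells with many transcripts and many cells with few cannot be told apart.

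The genes were sorted by hand into 9 classes by their known functions after they had been chosen, with 23 genes of nerve cell adhesion, axon guidance and synapse, 20 of the intestinal epithelium, 17 secreted factors, receptors and matrix proteins, 16 of intracellular signalling, 16 transporters and metabolic or glycan enzymes, 12 transcription factors and cofactors, 7 of epithelial junctions and keratins, 10 noncoding or unnamed and 19 others. Every class had the same order of libraries, with both replicate 3 libraries above the other 4 and GFP replicate 3 above POU5F1B replicate 3 in summed CPM. The first of these orders follows from the rule and the second does not.

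**Figure D2:**
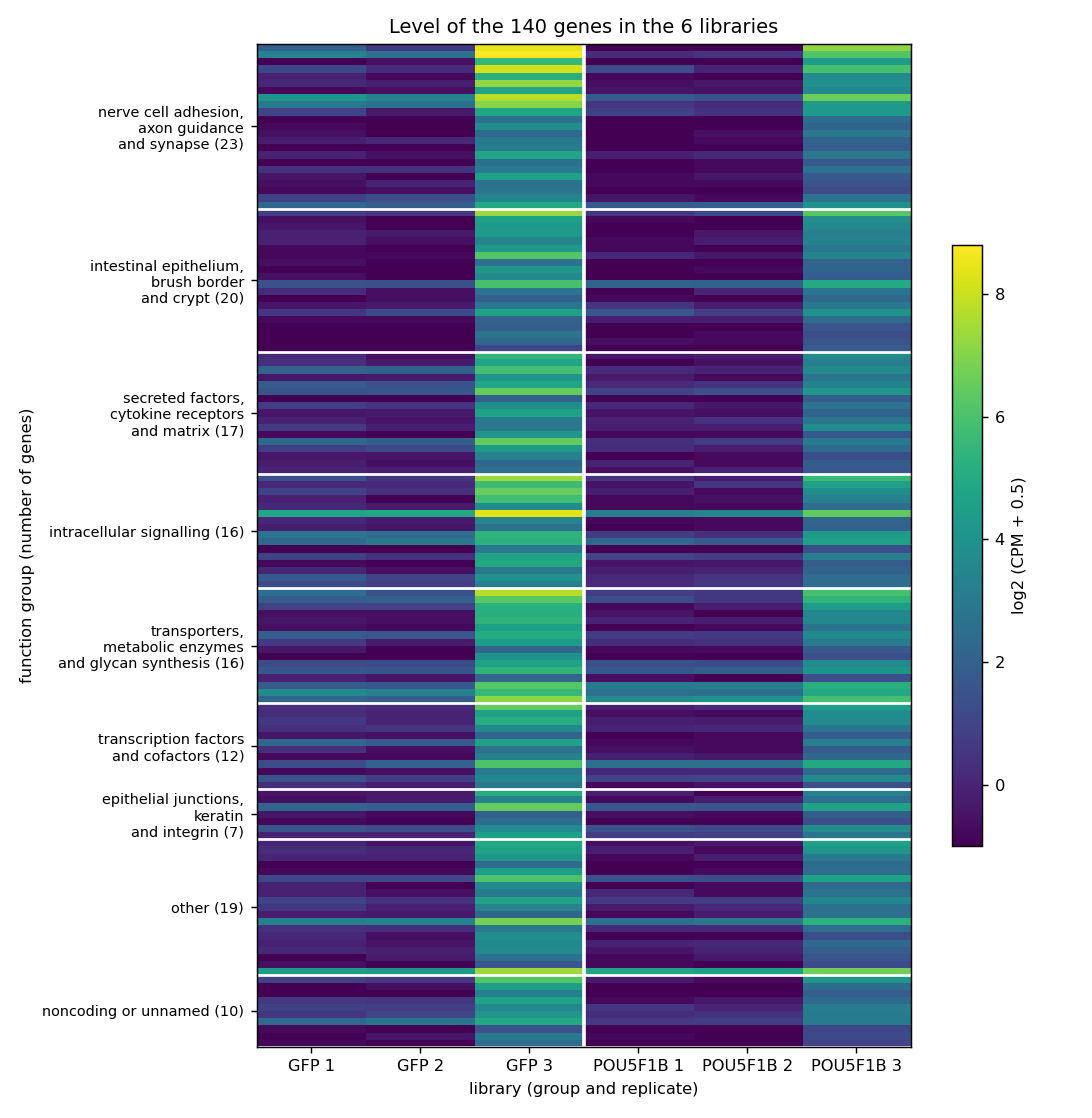
Level of the 140 genes, one row each, in the 6 libraries as log2 of CPM plus 0.5, with rows grouped by function. Both replicate 3 columns are bright in every class, and the GFP replicate 3 column is brighter than the POU5F1B replicate 3 column.

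The nervous-system class held the largest single ratios on the CPM plus 0.5 scale, ROBO1 in GFP and PCDH19 in POU5F1B. PCDH19 (ENSG00000165194, chromosome X), a delta-protocadherin that mediates adhesion between neurons, had 43, 13 and 4327 counts in GFP replicates 1, 2 and 3 and 0, 0 and 1687 in POU5F1B. CNTN1 (ENSG00000018236, chromosome 12), a GPI-anchored adhesion protein of axons, had 114, 75 and 5524 counts in GFP and 8, 10 and 810 in POU5F1B. For both genes the replicate 3 libraries lay above all others, and PCDH19 in POU5F1B replicate 3 was at least 1120-fold higher than the limit that its absence from replicates 1 and 2 allows. ROBO1, the receptor through which SLIT proteins repel axons, had 20, 8 and 3552 counts in GFP and 25, 5 and 725 in POU5F1B, a GFP ratio of 174 on the CPM plus 0.5 scale. Its paralog ROBO2, 947274 bases away on chromosome 3, had 1, 0 and 166 counts and 0, 0 and 47. The repulsive ligand SEMA3A had 7, 5 and 1849 counts in GFP and 2, 3 and 175 in POU5F1B, so a secreted guidance cue and guidance receptors were high in the same libraries.

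Genes of synaptic vesicles and transmitters were also in the class. SV2B, a synaptic vesicle glycoprotein, had 0, 2 and 565 counts in GFP and 0, 0 and 255 in POU5F1B, a ratio in GFP of 563 (95% exact interval 155 to 4660, counting error only). SYT1, the calcium sensor of vesicle release, had 83, 72 and 1620 counts in GFP and 12, 7 and 225 in POU5F1B. DBH and DDC, enzymes of catecholamine synthesis, had 342 and 58 counts in GFP replicate 3, 219 and 81 in POU5F1B replicate 3, and 0 to 18 in the other 4 libraries. DRD2, a dopamine receptor, had 17, 26 and 122 counts in GFP and 3, 1 and 72 in POU5F1B. Over the class, the summed level was 49.9, 32.0 and 1870 CPM in GFP and 12.3, 10.4 and 537 CPM in POU5F1B, and the median ratio was 19.3 in GFP and 11.5 in POU5F1B. Defining neural markers did not share this pattern: STMN2, MAP2, SOX10, ELAVL3, RBFOX3 and GFAP had 0 to 3 counts in every library. SYP and SNAP25, which carried nearly all of the neural marker sum, had 168, 178 and 230 and 177, 155 and 155 counts in GFP, and 37, 48 and 257 and 16, 13 and 131 counts in POU5F1B, so they stood out in replicate 3 of POU5F1B but not of GFP. The neural marker list as a whole summed to 27.7 to 31.8 CPM in the GFP libraries and to 6.41, 8.08 and 35.4 CPM in the POU5F1B libraries, with 0 of its 9 measured genes among the 140, and its part in the result was not tested.

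The intestinal class joined crypt and brush border genes. LGR5, the receptor that marks intestinal stem cells, had 1, 0 and 239 counts in GFP and 1, 0 and 79 in POU5F1B, ratios of 476 (95% exact interval 84.6 to 18900) and 158 (27.5 to 6310) from single counts in replicates 1 and 2. SMOC2, a matricellular protein of stem cells, had 3, 0 and 240 counts in GFP and 0, 0 and 134 in POU5F1B. DKK4, a secreted Wnt antagonist that is itself a Wnt target, had 8, 2 and 76 counts and 0, 5 and 77. The 4 genes of a list of 19 Wnt target and intestinal stem cell genes that met the rule were these 3 and PROX1. The list had 18 genes at 1 CPM or more in both replicate 3 libraries, and its median ratio over those genes was 1.16 in GFP and 1.99 in POU5F1B, while AXIN2, a canonical target, had 4938, 4867 and 3320 counts in GFP and 4204, 2996 and 3613 in POU5F1B. ASCL2, a stem cell transcription factor, stood just outside the limit at 3.98 in GFP and 5.03 in POU5F1B.

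Enterocyte and secretory genes stood in the same class. GPX2 (ENSG00000176153), the gastrointestinal glutathione peroxidase, had 15, 12 and 1966 counts in GFP and 12, 19 and 897 in POU5F1B. TSPAN8, a tetraspanin of colon epithelium and carcinoma, had 2, 0 and 285 counts in GFP and 1, 0 and 164 in POU5F1B. DPEP1, a brush border dipeptidase, had 1, 1 and 884 counts in GFP and 7, 3 and 121 in POU5F1B, one of the 5 largest quotients of the GFP and POU5F1B ratios. CDHR2 and ANKS4B, a protocadherin and a scaffold of the complex that links microvilli, had 75 and 55 counts in GFP replicate 3, 44 and 27 in POU5F1B replicate 3 and 0 to 2 in the other 4 libraries. TFF3, a goblet cell peptide, and DEFA5, a Paneth cell defensin, had no counts in replicates 1 and 2 of either group, against 42 and 19 in GFP replicate 3 and 29 and 35 in POU5F1B replicate 3. Other stem cell genes did not share the pattern: OLFM4 had no counts in any library, and EPHB3 was at 0.199 of replicates 1 and 2 in GFP replicate 3 and at 0.577 in POU5F1B replicate 3. The class summed to 7.25, 6.02 and 480 CPM in GFP and 9.82, 9.01 and 229 CPM in POU5F1B, and 5 of its 20 genes, SLC39A5, FXYD3, MGAM2, DKK4 and DEFA5, were higher in POU5F1B replicate 3 than in GFP replicate 3. In a separate list of 30 colon differentiation genes, 6 reached 1 CPM in both replicate 3 libraries, 1, TFF3, met the rule, and 9 had no counts in any library.

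Promoter sequence was a property that the rule had not used. RefSeq promoter windows on GRCh38.p14, 250 bases before and 50 after each annotated start, were at hand for 104 of the 140 genes, 195 windows in all. The TCF motif of Wnt targets (CTTTGANC on either strand) stood in 11 of 195 windows, 5.64%, against 1073 of all 35116 windows, 3.06%, and by gene in 11 of 104, 10.6%, against 1021 of 27305, 3.74%. The motif of FOXA factors (TGTTTAC on either strand), which act in endoderm, stood in 14 windows, 7.18%, against 1202, 3.42%, and in 12 of 104 genes, 11.5%, against 4.19%. The 250 bases before the start are shown for 2 genes with the TCF motif, GPX2 and ELAVL2, and 2 with the FOXA motif, TSPAN8 and CNTN1, one intestinal and one nervous-system gene for each, with every copy of either motif or its complement in capitals, 5′ to 3′ on the strand of the gene. They lie at chr14:64942746-64942995 (minus) for GPX2, chr9:23823133-23823382 (minus) for ELAVL2, chr12:71157810-71158059 (minus) for TSPAN8 and chr12:40908107-40908356 (plus) for CNTN1.
GPX2: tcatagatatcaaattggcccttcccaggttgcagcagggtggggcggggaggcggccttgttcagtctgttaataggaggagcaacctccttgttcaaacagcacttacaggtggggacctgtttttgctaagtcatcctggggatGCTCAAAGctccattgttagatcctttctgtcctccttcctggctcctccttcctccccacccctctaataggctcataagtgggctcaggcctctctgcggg
ELAVL2: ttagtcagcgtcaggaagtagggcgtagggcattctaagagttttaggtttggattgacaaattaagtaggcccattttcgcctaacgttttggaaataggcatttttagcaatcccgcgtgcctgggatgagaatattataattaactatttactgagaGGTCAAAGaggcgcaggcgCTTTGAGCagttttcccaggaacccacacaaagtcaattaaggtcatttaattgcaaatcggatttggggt
TSPAN8: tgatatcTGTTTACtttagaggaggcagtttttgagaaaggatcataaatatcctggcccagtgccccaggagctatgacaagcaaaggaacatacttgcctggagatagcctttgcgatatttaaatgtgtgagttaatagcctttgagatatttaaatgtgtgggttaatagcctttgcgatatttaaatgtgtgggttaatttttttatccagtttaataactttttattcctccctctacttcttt
CNTN1: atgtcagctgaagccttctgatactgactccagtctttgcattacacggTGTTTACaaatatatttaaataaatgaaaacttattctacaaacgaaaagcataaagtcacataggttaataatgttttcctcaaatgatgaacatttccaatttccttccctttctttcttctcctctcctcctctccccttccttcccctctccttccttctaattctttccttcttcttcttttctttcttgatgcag
GPX2 held 1 TCF motif, beginning 103 bases before the start, and ELAVL2 held 2, at 90 and 71 bases before this start. TSPAN8 and CNTN1 held 1 FOXA motif each, at 243 and 201 bases before the start. Each window shown precedes 1 annotated start. That start need not be the outer end of the gene, nor the start used in these cells.

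The 140 genes had more windows per gene than all genes, 195 for 104 against 35116 for 27305, which raises shares by gene: the GC box GGGCGG was in 56.7% of their genes against 48.3%, but in 42.6% of their windows against 45.0%. In all, 21 motifs were searched, 4 of them, FOXA, CDX, HNF4 and SOX, added after the genes were known. By window, the CDX motif TTTATNG was in 11.8% against 9.73%, the HNF4 motif CAAAGTNCA in 2.05% against 1.1% and the SOX motif CATTGT in 11.3% against 10.8%. The AP-1 motif TGANTCA was in 3.08% of the genes' windows against 7.71% of all windows, and the TATA box TATAAA in 14.9% against 11.5%. Windows of 1 gene can overlap. The median window of the 140 genes held 57.0% G and C and 11 CG dinucleotides, against 58.7% and 14 over all windows. The part of base composition in the motif shares was not tested. Protein-coding genes of the set also spanned more of the genome, with a median of 72.6 kb against 33.6 kb for 11713 other protein-coding genes at 1 CPM or more.

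Among the 12 transcription factors and cofactors, PROX1 (ENSG00000117707, chromosome 1), a homeobox factor that is a Wnt target in colorectal tumours, had 9, 8 and 1111 counts in GFP and 5, 7 and 250 in POU5F1B. MYB, which maintains crypt progenitors, had 23, 47 and 822 counts and 72, 61 and 361. These factors were thus detected in every library and were highest in the 2 replicate 3 libraries. SOX2, POU3F2 and MYT1, factors of neural progenitors and neurons, had 72, 50 and 417 counts in GFP replicate 3 and 36, 35 and 150 in POU5F1B replicate 3, against 0 to 12 in the other 4. ETV1, an ETS factor downstream of MAP kinase signalling, was at 4.22, 2.82 and 23.7 CPM in GFP and 0.0792, 0.0929 and 8.88 CPM in POU5F1B. ID1, an inhibitor of basic helix-loop-helix factors, had 29, 16 and 132 counts and 19, 17 and 136, and was alone in this class in being higher in POU5F1B replicate 3.

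**Figure D3:**
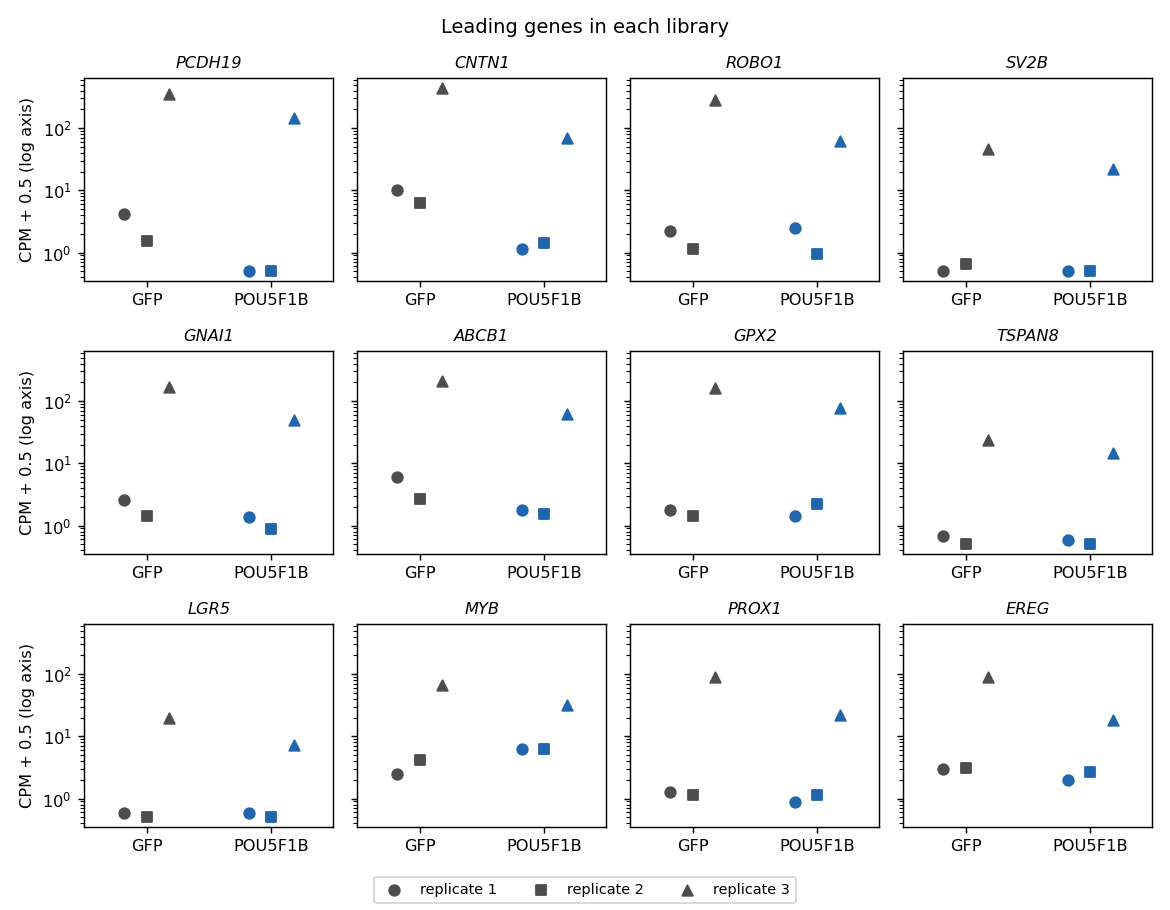
CPM plus 0.5 on a log axis in each library for 12 of the 140 genes, with 1 point per library, grey for GFP and blue for POU5F1B, and marker shapes for replicates 1, 2 and 3. In each panel both triangles, the replicate 3 libraries, lie above the circles and squares, and the GFP triangle lies above the POU5F1B triangle.

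Secreted ligands formed the next class. EREG, an EGF-family ligand that activates EGFR and ERBB4, had 29, 33 and 1090 counts in GFP and 19, 23 and 206 in POU5F1B, and was the only 1 of 14 EGF-family ligands and receptors listed to meet the rule. KITLG, the ligand of KIT, had 52, 41 and 1065 counts in GFP and 10, 12 and 88 in POU5F1B, so that its level in POU5F1B replicate 3 was 0.0873 of that in GFP replicate 3, the smallest such ratio of the 140. IGF1, the insulin-like growth factor, had 44, 46 and 748 counts in GFP and 8, 5 and 138 in POU5F1B. IGFBP1, which binds IGF1, ran the other way in replicate 3, with 13, 5 and 87 counts in GFP and 5, 4 and 167 in POU5F1B, the largest ratio of POU5F1B to GFP replicate 3, 2.03. The ligands FGF9, BMP5 and PTHLH had 247, 206 and 339 counts in GFP replicate 3 and 58, 32 and 111 in POU5F1B replicate 3, with 0 to 37 in the other libraries. ALB, the serum albumin gene, had no counts in replicates 1 and 2 of either group and 43 and 37 in the replicate 3 libraries.

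In signalling, GNAI1, an inhibitory G protein subunit, had 25, 12 and 2043 counts in GFP and 11, 4 and 579 in POU5F1B. ANXA1, a calcium-dependent phospholipid-binding protein, was already present in replicates 1 and 2, with 312, 360 and 4155 counts in GFP and 113, 113 and 1001 in POU5F1B. ARHGEF38, a guanine nucleotide exchange factor, had 1, 0 and 376 counts in GFP against 3, 3 and 38 in POU5F1B, the largest quotient of the GFP and POU5F1B ratios on the CPM plus 0.5 scale, 57.0 against 4.94. Of the transporters, ABCB1 (ENSG00000085563, chromosome 7), the drug efflux pump P-glycoprotein, had 65, 28 and 2618 counts in GFP and 16, 11 and 719 in POU5F1B. AKR1C3, an aldo-keto reductase of steroid metabolism, had 16, 18 and 452 counts and 1, 4 and 236. CD36, a fatty acid receptor, had counts in the replicate 3 libraries only, 189 and 25. Of the junction genes, CLDN1, a tight junction claudin, had 49, 43 and 1089 counts and 35, 27 and 286, and the desmosomal cadherins DSC2 and DSG3, 345219 bases apart on chromosome 18, had 416 and 65 in GFP replicate 3, 107 and 25 in POU5F1B replicate 3 and 0 to 5 elsewhere. AKR1C3, KRT6A, KLRC2 and MGAM2 have close paralogs, so their counts of uniquely mapped reads are uncertain.

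Few of the 140 genes stood in lists of common stress and growth responses. With 1.05% of the 13287 genes raised by the rule, lists of this size would hold few anyway, so nothing is read from these counts. The lists of MAPK feedback, NRF2 targets, EGF-family ligands and receptors, and TGF-beta and BMP targets held 1 each, ETV1, AKR1C3, EREG and ID1. Of 22 function lists, those of immediate early and AP-1 factors, cytokines and NF-kB, hypoxia, the unfolded protein response, p53 targets, interferon-stimulated genes, heat shock, YAP and SRF targets, the epithelial-mesenchymal transition, the cell cycle and cholesterol synthesis each held 0 of the 140, and in them the median ratio ranged from 0.46 for YAP and SRF targets in GFP to 2.19 for the epithelial-mesenchymal transition in GFP. Over all 13287 genes the median ratio was 0.972 in GFP and 1.03 in POU5F1B. Markers of other cell types differed in direction. A list of embryonic kidney markers was highest in both replicate 3 libraries, at 59.4, 59.3 and 103 CPM in GFP and 92.7, 85.3 and 104 CPM in POU5F1B, with 0 of the 140 genes in it. Keratinocyte markers summed to 2500, 2130 and 1370 CPM in GFP and to 1370, 1230 and 2090 CPM in POU5F1B. Theirs was the only marker list to hold 1 of the 140 genes, DSG3. Leukocyte markers summed to 1.8 to 5.55 CPM, with CD3D, MS4A1 and CD68 at 0 and PTPRC at 0 to 2 counts. Fibroblast markers summed to 172, 153 and 26.1 CPM in GFP and 15.8, 13.5 and 23.7 CPM in POU5F1B, carried by COL1A1, and endothelial markers to 5.25 to 17.4 CPM. Epithelial markers moved in part with the set: VIL1, the brush border actin bundler, had 274, 184 and 2420 counts in GFP and 543, 406 and 1332 in POU5F1B, and EPCAM 1030, 1174 and 5962 in GFP but 4073, 3569 and 3029 in POU5F1B. The part of these other shifts in the result was not tested.

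The genes lay on many chromosomes, at unequal shares. Coordinates on GRCh37 (the build also called hg19) were known for 138. Of these, 19 lay on chromosome 7, 2.8% of the genes there at 1 CPM or more. Another 16 lay on chromosome 12, 2.21%, where the share over all such genes was 1.05%. The share was 2.34% on chromosome 21 and 2.22% on chromosome 18, from 3 and 4 genes, but 0.401% on chromosome 11 and 0.111% on chromosome 19. Another of the 140 lay within 1 Mb of 38 of them, a count without a background. TSPAN8 (chromosome 12, 71518865 to 71835678, minus strand) and LGR5 (71833578 to 71980090, plus strand) overlap at their starts, as do PROX1 and its antisense transcript PROX1-AS1 on chromosome 1, and TMEM176A and TMEM176B on chromosome 7, while LRRTM1 lies within CTNNA2 on chromosome 2. These pairs are on opposite strands and the strand setting of the counting was not given, so reads of the partners may be shared.

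POU5F1B replicate 3 reached lower levels than GFP replicate 3 over most of the set. The ratio of CPM between the 2 libraries had a median of 0.432 (quartiles 0.284 and 0.611) over the 140 genes, and 129 were lower in POU5F1B, against a median of 1.09 (0.824 and 1.36) over the other 13147 genes. By class the median was 0.331 for secreted factors, 0.412 for the nervous-system class and 0.599 for the intestinal class. These are 1 library against 1, so the difference has no replicate check, and the POU5F1B transgene itself was lower in this library.

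**Figure D4:**
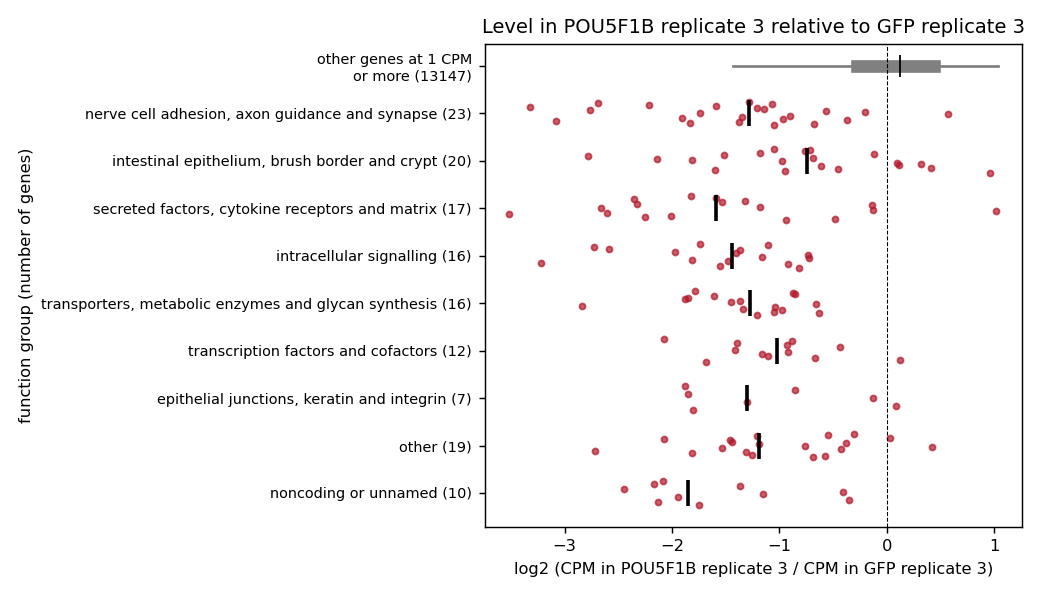
Log2 of CPM in POU5F1B replicate 3 over GFP replicate 3, with 1 red point per gene by function class and a black tick at the class median. The grey bar gives the quartiles and the thin line the 5th to 95th percentile of the other 13147 genes, whose median lies just above 0, while every class median lies below 0.

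Between the groups, the study asked which transcripts change with POU5F1B. Over all 6 libraries 58 of the 140 genes passed the filter on low counts, 0 of them were called at an adjusted p under 0.05 and a fold above 2 by limma voom, and 0 had an unadjusted p under 0.05. The background was also empty, with 0 of 14286 genes called, 0%, and 1698 at an unadjusted p under 0.05. The study, by contrast, had enough genes raised with POU5F1B in SW480 for an annotation by function. The reason for this difference was not tested. It also named EREG among secreted factors that stood out in some, not all, of its settings. Here EREG was at -1.08 (log2, limma voom adjusted p = 0.833). DESeq2 called 232 genes, 0 of them among the 140, of which 41 tested members were given no adjusted p, and edgeR called 0 genes. The median log2 fold change of POU5F1B against GFP was -0.84 over the 58 genes, 49 of them below 0, and -0.023 over all tested genes. The rule used these libraries, so this median is a description only. Of the 58, 18 had 10 counts or more in replicates 1 or 2 of GFP only, and 3 of POU5F1B only. Without GFP replicate 3 the median was 0.46. The smallest p-value belonged to ETV1, at -3.64 ± 1.71 (SE, log2; limma voom adjusted p = 0.459), with 10.8 ± 12.7 CPM in GFP and 2.94 ± 4.95 CPM in POU5F1B (SD, n = 3). The divergent transcript TSPAN5-DT followed at -2.2 (adjusted p = 0.463 by limma voom), then DRD2 at -2.32, SYT1 at -2.85 and CAMK2D at -2.09. In 0 of the 58 genes did the groups fall apart without overlap. Of all tested genes, 10.2% lay wholly higher and 9.24% wholly lower in POU5F1B. The choice of genes with a wide spread in each group works against such separation, so nothing is read from this count.

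With both replicate 3 libraries left out, differences between the groups were larger than the spread for many of the genes, nearly all downwards in POU5F1B. A fit of these 4 libraries called 26 of the 58 genes, 22 lower and 4 higher in POU5F1B, with 5.15% of all 14286 tested genes lower and 3.21% higher. The count is a description and not independent of the choice: 54 of the 58 genes had at least 10 counts in a GFP library of replicates 1 or 2 and 39 in a POU5F1B library, 18 reached this in GFP only and 3 in POU5F1B only, and a 4-fold excess in POU5F1B replicate 3, the weaker of the 2, favoured genes with a low level in POU5F1B replicates 1 and 2. With no filter beyond 1 count, a setting chosen after the data had been seen, all 140 genes entered, and 14 were called, 12 lower and 2 higher, with 2.57% of 26689 genes lower and 1.44% higher. Without any fit, 95, 70 and 129 of the 140 genes had a lower CPM in POU5F1B than GFP at replicates 1, 2 and 3. At all 3 numbers 56 were lower, with 14.1% of the 13287 genes as background. Whether replicate numbers pair these libraries is not known, so the matching is by number only.

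Among the genes called lower in replicates 1 and 2 were adhesion and synaptic genes. For CNTN1 the difference on the log2 scale was -3.22 ± 0.45 (SE), for SYT1 -2.91 ± 0.39 and for DRD2 -3.14 ± 0.6. PCDH19, absent from both POU5F1B libraries and with 56 counts in the 2 GFP libraries, was at least 17.7-fold lower. ETV1, with 86 counts in GFP and 2 in POU5F1B, was lower by a ratio of 40.8 (95% exact interval 11 to 342, counting error only). The growth factors IGF1 (-2.64), KITLG (-1.95), PTHLH (-1.81) and FGF9 (-1.42) were lower as well, as were ANXA1, at -1.49 ± 0.16, DPYSL3, a semaphorin-signalling phosphoprotein, at -2.28, and the kinase subunit CAMK2D at -2.55. No p-values are given for single genes here, since the rule used these libraries. The replicate 3 libraries were used by the rule too, and 129 of all 140 genes were lower in POU5F1B replicate 3 than in GFP replicate 3: among them were each of the 22, with a median log2 ratio of -1.63. The 4 genes called higher were MAN1A1, a Golgi mannosidase (1.91 ± 0.24), SDR16C5, a retinol dehydrogenase (1.48), S100A14, a calcium-binding protein (1.35), and MYB (1.06). The 4 genes called higher were among those 129 as well: MAN1A1 had 49, 43 and 1690 counts in GFP and 159, 172 and 694 in POU5F1B. Of the Wnt target and stem cell list, 14 genes were tested: 0 were called over 6 libraries, and 4 lower and 0 higher in this fit. LGR5, SMOC2, DKK4 and PROX1, its genes among the 140, were not tested, so those called lower lie outside the set.

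**Figure D5:**
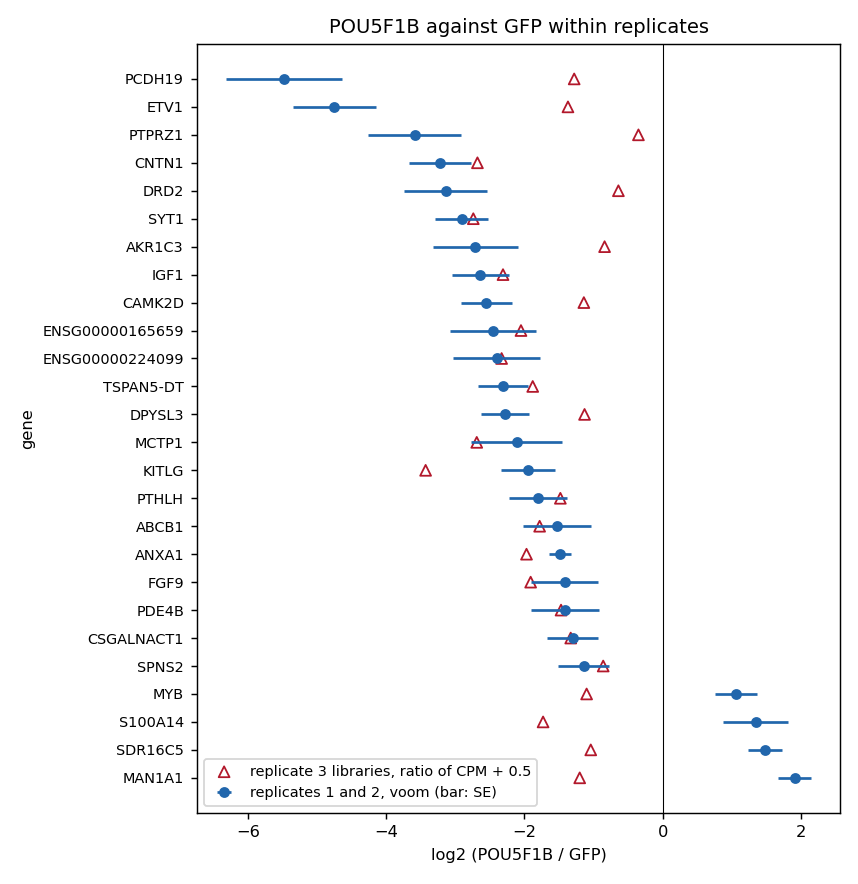
Log2 difference of POU5F1B from GFP for the 26 genes called within replicates 1 and 2, as the voom estimate with its standard error (blue) and as the ratio of the replicate 3 libraries on CPM plus 0.5 (red triangles). For 22 genes both marks lie left of 0, and for MYB, S100A14, SDR16C5 and MAN1A1 they lie on opposite sides.

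At the edge of the rule, EEPD1 entered with a POU5F1B ratio of 4.03, MAN1A1 with 4.04, S100A14 with 4.05 and DEFA5 with a GFP ratio of 4.07. Just outside were ENSG00000248596 and ASCL2 at 3.98, LRP2 at 3.95 and NCKAP5 at 3.94. NCKAP5, though outside the limit, had 129 and 23 counts in the replicate 3 libraries and 1 or 2 in each of the others.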

How the data were processed

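The authors deposited 1 table of whole-number read counts per gene for each of the 6 libraries, with no normalization. Per the sources used here, polyadenylated RNA was made into stranded libraries. Per the study's methods, reads were mapped to hg19 with hisat2, and featureCounts counted uniquely mapped reads over genes and transposable elements. The release of the annotation and the strand setting are not given in the sources used here. Groups and replicate numbers came from the titles.

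CPM was computed on library totals, and the genes were chosen by the rule stated at the opening of the report. The genes, function lists and classes were chosen with earlier results of these data known. The groups were compared with limma 3.58.1 voom in R 4.3.3 after filterByExpr and TMM scaling of edgeR 4.0.16, over 14286 genes with Benjamini-Hochberg adjustment, called at an adjusted p under 0.05 and a fold above 2. The test was tried on simulated counts. DESeq2 1.42.0 and edgeR's quasi-likelihood test were alternatives, beside other scalings, filters, a replicate block and left-out libraries. Ratios from 3 counts or fewer have exact binomial intervals that cover counting error only, and a count of 0 was replaced by 3 counts over the group.

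Named genes were those with the 10 largest smaller ratios and the 10 highest levels in replicate 3, members of lists with 2 or more, the genes called or with the smallest p, the edge of the rule, and the 5 most unequal ratios each way. Other genes named in the report were chosen after their values were seen. Symbols were known for 87.4% of identifiers. The smallest chi-square per degree of freedom between replicates, 4.21, was above 1, so no library was a copy of another. Coordinates are from GENCODE 44 lifted to GRCh37 and promoters from RefSeq on GRCh38.p14. Motifs were read on both strands. Results for 1 item are not reported here.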

Additional observations from a re-analysis of the deposited data

How the results depend on the processing

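The number of genes chosen depended on the limits: 216 with no offset, 52 with an offset of 2 CPM, 54 at 8-fold, 87 at 5 CPM and 195 at 3-fold, but 138 (136 shared) with TMM-scaled and 136 (134 shared) with DESeq2-scaled library sizes, and 146 (131 shared) or 143 (134 shared) when replicate 1 or 2 was left out. Between POU5F1B and GFP, the genes called rose from 0 to 232 with DESeq2, 1077 with sample quality weights (GFP replicate 3 then had a weight of 0.111), 4 without a filter and 1194 with replicates 1 and 2 only, and ranged from 0 to 595 when single libraries were left out, 595 without GFP replicate 3 and 5 without POU5F1B replicate 3. Of the 140 genes, 5 were called with quality weights, 26 with replicates 1 and 2 only, 14 with these and no filter, and 0 in the other settings. Their median log2 fold change moved from -0.84 to -0.32 with quality weights, and from -2.07 without POU5F1B replicate 3 to 0.46 without GFP replicate 3, where its sign turned. Each group has 1 replicate 3 library, so leaving 1 out keeps replicate 3 in the other group only. The replicate 3 libraries were not alike over all genes, with a chi-square per degree of freedom of 56 between them. That was the smallest value of GFP replicate 3 to any library. POU5F1B replicate 3 was closer to POU5F1B replicates 1 and 2, at 17.5 and 20.9, and to GFP replicates 1 and 2, at 28.6 and 27.9. ETV1, TSPAN5-DT, DRD2, SYT1, CAMK2D and POU5F1B kept their sign in every setting that gave a value; with at least 10 counts in every sample this was TSPAN5-DT only, and DESeq2 gave no adjusted p for SYT1 and CAMK2D, so these settings have no value for the others.

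The labels do not say whether replicate numbers pair the libraries. Deviations of same-numbered libraries correlated at 0.242, 0.0883 and 0.165, and those of differently numbered libraries at -0.277 to 0.25. GFP replicate 2 correlated best with POU5F1B replicate 1, so the correlations did not settle the pairing. With the replicate block, voom called 1 gene, POU5F1B, and 0 of the 140, of which 35 had an unadjusted p under 0.05, and their median was -1.05. At 3 to 78.5 counts for the median gene outside GFP replicate 3, the depth limits statements about replicates 1 and 2, and 82 genes were too low to be tested.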
